A study of Mus musculus with 6 samples.

Results

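The cell cycle and replication genes are 43 genes whose products copy the genome, drive a cell through its division or hold it back. Their levels were compared in whole adrenal glands between mice labelled as conditional knockouts of Gata6 and control mice. Every probe whose symbol matched a listed gene was taken, which gave 87 of the 45281 probes on the Illumina bead array. Of the 43 genes, 42 had such a probe and 35 had at least 1 probe bright enough to be tested, among 13327 tested genes in all. The arrays labelled cKO came from adult virgin females given as Gata6 knockout mice, and the control arrays from adult virgin females given as normal mice, with 3 arrays per label. All were of strain B6.FVB. The sources used here do not give the promoter that drove the deletion, the exact age or the alleles, nor do they say that samples were separate animals. The p-values therefore rest on the spread between the deposited samples, and this spread may be technical. The gland is a bulk tissue, so fewer cells of a type and less RNA per cell cannot be told apart.

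A dividing cell first loads the Mcm helicase onto its origins, with Cdc6 and Cdt1 as loading factors, then copies its DNA around the sliding clamp Pcna. D-type cyclins with Cdk4 and Cdk6, and E-type cyclins with Cdk2, release E2F factors from the retinoblastoma protein Rb1, and E2F factors switch on genes of replication. Cyclin B with Cdk1 drives mitosis, in which Aurora and Polo kinases build the spindle and the Bub and Mad proteins hold the cell until its chromosomes are attached. The adrenal cortex is renewed slowly from its outer layers, and most cells of an adult gland are not in division. The genes of replication and of mitosis are known to carry different promoter elements. Replication genes often hold E2F sites, and mitotic genes often hold the cell cycle homology region (CHR) near a CCAAT box.

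The last 200 bases before the start of 4 members, chosen with the values given further on known, are shown as examples of these elements. Mcm5 and Mcm6 hold E2F cores and no CHR, Cdc20 holds a CHR and no E2F core, and Mki67 holds both. Mcm5 and Mcm6, subunits of the replicative helicase, had the highest differences among the members by their brightest probes. Mki67, the proliferation marker, and Cdc20, the activator that lets chromosomes separate, had differences below 0. Sequences are from RefSeq on GRCm38.p6, 5′ to 3′ on the strand of the gene, and capitals mark E2F cores, CHR elements and CCAAT boxes on either strand.
Mcm5, chr8:75109309-75109508, plus strand: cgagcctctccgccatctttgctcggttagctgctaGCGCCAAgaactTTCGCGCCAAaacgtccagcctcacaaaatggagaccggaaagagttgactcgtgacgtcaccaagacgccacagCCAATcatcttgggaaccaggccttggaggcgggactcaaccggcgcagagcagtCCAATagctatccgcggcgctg
Mcm6, chr1:128359706-128359905, minus strand: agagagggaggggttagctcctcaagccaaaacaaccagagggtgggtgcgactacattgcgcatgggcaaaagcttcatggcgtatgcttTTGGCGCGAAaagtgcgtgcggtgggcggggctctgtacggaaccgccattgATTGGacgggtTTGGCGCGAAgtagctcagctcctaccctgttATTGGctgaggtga
Mki67, chr7:135716380-135716579, minus strand: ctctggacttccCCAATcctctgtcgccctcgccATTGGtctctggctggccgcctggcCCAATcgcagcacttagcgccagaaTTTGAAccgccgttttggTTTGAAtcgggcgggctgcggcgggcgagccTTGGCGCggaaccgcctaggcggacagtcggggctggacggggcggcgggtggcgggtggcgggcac
Cdc20, chr4:118437344-118437543, minus strand: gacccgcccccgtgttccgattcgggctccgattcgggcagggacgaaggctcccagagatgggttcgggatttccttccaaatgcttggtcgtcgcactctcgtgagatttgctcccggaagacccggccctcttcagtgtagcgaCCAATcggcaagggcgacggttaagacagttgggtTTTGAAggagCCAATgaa

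Across windows of 300 bases, from 250 before to 50 after a start, motifs were searched by their letters. The E2F core was taken as TTCCCGC, with the further forms TTGGCGC, then also TTCGCGC and lastly also TTGCCGC. The CHR was taken as TTTGAA or else as TTCGAA, and the third motif was the CCAAT box, read by those same letters. Both strands were read, and matches of different motifs may overlap. A promoter window was on hand for 34 of the 43 members, in 37 windows. An E2F core lay in 7 of 8 windows of the loading factors and helicase subunits (87.5%) and in 0 of 6 windows of the spindle checkpoint, centromere and motor genes, against 9.57% of 32851 windows of all genes. A CHR lay in 5 of those 6 windows of the checkpoint group (83.3%) and in 4 of 6 windows of the mitotic cyclins and kinases (66.7%), against 2 of 8 windows of the helicase group and 19.2% of all windows. A CCAAT box lay in 26 of the 37 member windows (70.3%) and in 37.4% of all windows. Among tested members, the 9 with an E2F core and no CHR had a median difference of 0.08 (from -0.37 for Rrm2 to 0.45 for Mcm6). Of these 9, 4 lay below 0 and 5 above. The 8 with a CHR and no E2F core had a median of -0.08 (from -0.22 to 0.16, the latter for Top2a), with 6 below 0 and 2 above. The 9 with neither element had a lower median, -0.26, with 7 of them below 0, and the 2 with both had -0.22. A match describes the letters of the window and is not a binding site.

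The targeted gene and the tissue were checked first. The 1 probe of Gata6, a zinc finger transcription factor, read 11.99, 12.06 and 12.31 log2 units on the arrays labelled cKO, against 11.80, 11.66 and 11.71 on the control arrays. All values of the arrays labelled cKO lay above those of the control arrays, which goes against the label, and the difference of 0.40 (SE 0.10) did not pass the threshold of an adjusted p under 0.05 (limma, adjusted p = 0.0545). The sources used here do not place the probe relative to the deleted part, and a probe outside it checks nothing. Every direction is that of the arrays labelled cKO relative to the control arrays. All 7 defining genes of the adrenal cortex were detected. Of them 1 was higher past that threshold on the arrays labelled cKO, Mc2r (0.54, SE 0.10, limma adjusted p = 0.0146). The summed intensity of the 7 genes lay between 76000 and 84000 on the arrays labelled cKO and between 72500 and 86100 on the control arrays. Between 18314 and 19459 probes were detected per array (detection p under 0.05), and 6.98% of the tested genes differed between the labels, with 4.34% higher on the arrays labelled cKO and 2.64% lower. Of the called genes 62.2% were higher, against 40.8% with the arrays scaled to a common median of the tested probes.

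No member passed the threshold. Over all probes tested, 0 of the 35 tested members and 0 of their 60 tested probes had an adjusted p under 0.05 (limma), where 6.98% of all genes did. Of all tested probes, 6.49% passed. At an unadjusted p under 0.05 there were 8 members (22.9%), against 23.7% of all genes. Of these, 4 were higher on the arrays labelled cKO, where 12.7% of all genes were, and 4 were lower, where 11% of all genes were. The groups did not overlap in 8 members (22.9%), against 29% of all genes. The arrays labelled cKO were above in 5 of them and below in 3, against 14.3% and 14.7% of all genes. Neither share of members exceeded that of the whole array. The median difference over the tested members was -0.03 log2 units, beside -0.01 over all genes, and single members ranged from -0.51 for Cdkn1b to 0.45 for Mcm6. A missed threshold does not show that the levels were alike. By the brightest probe, the 95% interval of the difference lay within 1 log2 unit of 0, a 2-fold change, for 34 of 35 members. Birc5 was the exception (-1.01 to 0.35). Dimmer tested probes of Ccnd2 (0.37 to 1.38), Ccnd3 (-1.09 to -0.20) and Mcm6 (-0.23 to 1.03) had intervals that reached past 1 log2 unit. For 13 members the interval of the brightest probe lay within 0.5 log2 units of 0. With the arrays scaled to a common median of the tested probes, 2 of the 35 tested members passed, the D-type cyclins Ccnd2 and Ccnd3. Under that scaling 10.7% of all genes passed.

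**Figure D1:**
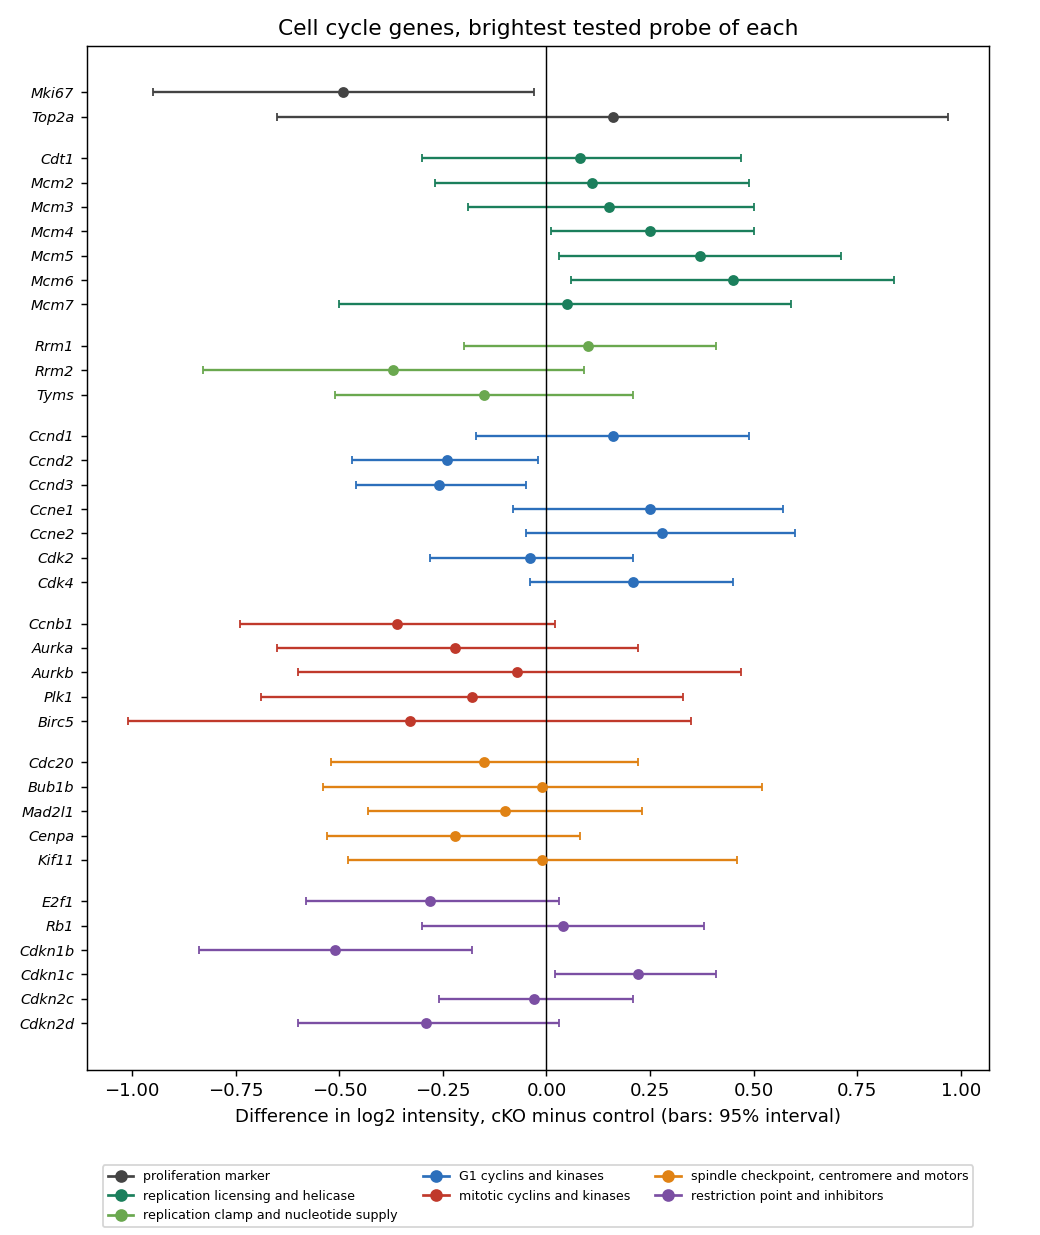
Difference in log2 intensity, arrays labelled cKO minus control, for the brightest tested probe of each of the 35 tested members (points), with its 95% interval from the limma fit (bars), coloured by role. The point of Ccne2, detected on 0 control arrays, is its measured difference and not a bound. Points range from -0.51 for Cdkn1b to 0.45 for Mcm6. All 7 helicase and loading genes lie right of 0 and all 10 genes of the mitotic and checkpoint groups lie left of it, most of them with intervals that cross 0.

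The pair of proliferation markers gave different values. Mki67, a nuclear protein present only in cycling cells, read 7.04, 6.37 and 6.63 log2 units on the arrays labelled cKO, against 7.29, 6.93 and 7.28 on the control arrays. The groups overlapped by the first cKO array alone, which lay above the lowest control array, and the difference was -0.49 (SE 0.20, adjusted p = 0.195). Top2a, the topoisomerase that untangles chromosomes in mitosis, read 8.17, 6.80 and 7.65 on the arrays labelled cKO, against 7.66, 6.81 and 7.66 on the control arrays. These groups overlapped fully, with both the highest and the lowest value on arrays labelled cKO, and the difference was 0.16 (SE 0.36, adjusted p = 0.828). Each gene had further probes that were detected on no array.

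By their brightest probes, genes that load and form the replicative helicase all had differences above 0, where 52.3% of all genes lay below 0. The differences ranged from 0.05 for Mcm7 to 0.45 for Mcm6, with a median of 0.15 over 7 tested genes. Of these, 0 passed the threshold and 3 had an unadjusted p under 0.05, against 23.7% of all genes. Mcm6 read 9.20, 9.12 and 9.74 log2 units on the arrays labelled cKO, against 9.04, 8.79 and 8.87 on the control arrays. There was no overlap between the groups, and the third cKO array stood highest. The difference of Mcm6 was 0.45 (SE 0.17, adjusted p = 0.164), and its other tested probes gave 0.52 and 0.40. Mcm5 read 9.88, 9.48 and 9.93 on the arrays labelled cKO, against 9.55, 9.21 and 9.43 on the control arrays. Its second cKO array lay below the highest control array, and the difference was 0.37 (SE 0.15, adjusted p = 0.187). Mcm4, a catalytic core subunit, read 10.83, 10.80 and 11.04 on the arrays labelled cKO, against 10.77, 10.51 and 10.63 on the control arrays. Every cKO array lay above every control array for Mcm4, and the difference was 0.25 (SE 0.11, adjusted p = 0.201). Mcm2, Mcm3, Mcm7 and the loading factor Cdt1 had differences of 0.11, 0.15, 0.05 and 0.08. A dimmer tested Mcm7 probe gave -0.18. In all 7 genes the lowest of the 6 values was that of control replicate 2, and without that array 3 of the 7 differences lay below 0 and the median was 0.08, against 0.25 without control replicate 1. Without cKO replicate 1, 2 of them lay below 0, and without cKO replicate 3, 1 did. Cdc6, which loads the helicase together with Cdt1, had 4 probes, none detected on more than 2 arrays, and was not tested.

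The genes of the clamp and of nucleotide supply had a median of -0.15 over 3 tested genes, which was 0.02 without cKO replicate 2 and -0.28 without cKO replicate 1. Tyms, which makes the thymidine nucleotide, read 9.62, 9.01 and 9.44 log2 units on the arrays labelled cKO, against 9.55, 9.58 and 9.40 on the control arrays. The second cKO array stood below all others, and the difference was -0.15 (SE 0.16, adjusted p = 0.614). The ribonucleotide reductase subunits differed by 0.10 for the large subunit Rrm1 and by -0.37 for the S phase subunit Rrm2 (SE 0.13 and 0.20). Second tested probes gave 0.06 for Rrm1, -0.08 for Rrm2 and -0.26 for Tyms. The clamp gene Pcna had 1 probe, detected on just 1 array, a cKO one, and could not be tested.

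Among the G1 cyclins and kinases, 2 of 7 tested genes had an unadjusted p under 0.05, against 23.7% of all genes. Both were D-type cyclins and both were lower on the arrays labelled cKO by their brightest probes. Ccnd3 read 13.24, 13.44 and 13.49 log2 units on the arrays labelled cKO, against 13.59, 13.64 and 13.71 on the control arrays. Every cKO array lay below every control array, and the difference was -0.26 (SE 0.09, adjusted p = 0.129). A second Ccnd3 probe gave -0.64 (SE 0.20, adjusted p = 0.093), also with no overlap. Ccnd2 read 12.49, 12.21 and 12.25 on the arrays labelled cKO, against 12.65, 12.46 and 12.59 on the control arrays. Its first cKO array lay above the lowest control array, and the difference was -0.24 (SE 0.10, adjusted p = 0.189). With the arrays scaled to a common median of the tested probes, the differences were -0.54 for Ccnd3 (adjusted p = 0.0119) and -0.48 for Ccnd2 (adjusted p = 0.0342), both past the threshold. Under that scaling 10.7% of all genes passed, and the median difference over all genes was -0.09. Ccnd1 had 3 probes with differences of 0.16, 0.11 and 0.29, all above 0, and none passed (lowest adjusted p = 0.257). The E-type cyclin Ccne1 differed by 0.25. Its relative Ccne2 was detected on all 3 arrays labelled cKO and on 0 control arrays, so its level there is only bounded. Taken at no less than the lowest detected signal of each control array, the control level gave a 1.07-fold ratio, cKO over control. The measured difference had a 95% interval of -0.05 to 0.60, which includes 0 (adjusted p = 0.291). Cdk4, the partner of the D-type cyclins, differed by 0.21 and Cdk2, the partner of the E-type cyclins, by -0.04. Cdk6 was detected on no array.

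The probes of a gene did not always point the same way. Of 17 members with more than 1 tested probe, 5 had probes of both signs, namely Bub1b, Ccnd2, Cdk2, Cdk4 and Mcm7. In Ccnd2 the split was the widest of these. Its 2 brighter probes gave -0.24 and -0.31, whereas the third tested probe read 6.82, 6.92 and 7.26 log2 units on the arrays labelled cKO, against 6.53, 5.75 and 6.09 on the control arrays. All arrays labelled cKO lay above all control arrays. The difference of 0.88 (SE 0.22, 95% interval 0.37 to 1.38) was the largest of the 60 tested member probes and just missed the threshold (limma, adjusted p = 0.0528). It passed under 5 of 15 other settings, among them the scaling to a common median (0.91, adjusted p = 0.0324), with adjusted p-values between 0.028 and 0.178. Where these probes lie in the transcript could not be looked up here.

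**Figure D2:**
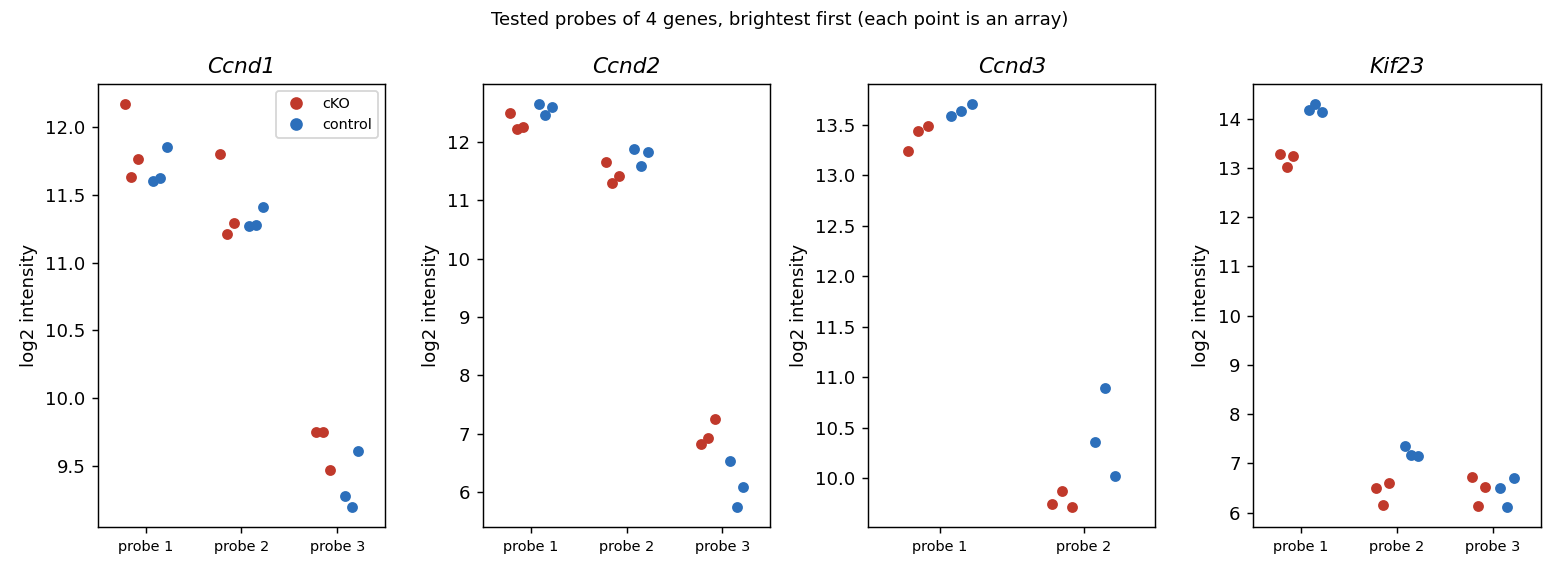
Log2 intensity of each tested probe of the D-type cyclins and of Kif23 on the single arrays (points, arrays labelled cKO left of control arrays, probes ordered by brightness). In Ccnd2 the first and second probes lie lower on the arrays labelled cKO (-0.24 and -0.31) and the third lies higher (0.88). In Kif23 the first and second probes are lower (-1.02 and -0.80) and the third is not (0.03).

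Genes of mitosis had small differences below 0. Over the mitotic cyclins and kinases the median was -0.22 (5 tested, from -0.36 to -0.07), and over the spindle checkpoint, centromere and motor genes it was -0.10 (5 tested, from -0.22 to -0.01). All 10 lay below 0, where 52.3% of all genes did, and 0 had an unadjusted p under 0.05. The largest of these differences was that of Ccnb1, the mitotic cyclin, at -0.36 (SE 0.17, adjusted p = 0.245), and a second Ccnb1 probe was detected on just 1 array labelled cKO and 2 control arrays. Birc5, also known as survivin, a subunit of the complex that guides chromosome attachment, read 8.73, 7.35 and 7.89 log2 units on the arrays labelled cKO, against 8.39, 8.38 and 8.20 on the control arrays. The highest and the lowest value were both on arrays labelled cKO, and the difference was -0.33 (SE 0.30, adjusted p = 0.556). All 3 Birc5 probes had the same order of the arrays labelled cKO, with differences from -0.33 to -0.26. Cenpa, the histone that marks the centromere, read 9.89, 9.38 and 9.70 on the arrays labelled cKO, against 9.86, 9.89 and 9.89 on the control arrays. The second cKO array again stood lowest, and the difference was -0.22 (SE 0.13, adjusted p = 0.367).

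Other genes of these groups lay nearer to 0. Aurka and Plk1, kinases of the spindle poles, differed by -0.22 and -0.18, and Aurkb, the kinase bound by Birc5, by -0.07. Cdc20, whose promoter is shown above, gave -0.15 for its brightest probe and from -0.21 to -0.04 for the other 3. The checkpoint genes Mad2l1 and Bub1b differed by -0.10 and -0.01 and the spindle motor gene Kif11 by -0.01. The cyclins Ccna2 and Ccnb2, the checkpoint kinase gene Bub1 and the motor gene Kif20a were detected on no array. Cdk1 had no probe under its symbol. On this array 3 probes carry its older symbol Cdc2a and lie outside the rule, and the 1 that was tested gave -0.32 (SE 0.16, adjusted p = 0.289).

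The restriction point and its inhibitors had a median of -0.15 over 6 tested genes, of which 0 passed. Cdkn1b, the inhibitor p27 that keeps resting cells out of the cycle, read 5.88, 5.62 and 5.84 log2 units on the arrays labelled cKO, against 6.34, 6.29 and 6.25 on the control arrays. The groups did not overlap, and the difference of -0.51 (SE 0.15, adjusted p = 0.0779) was the lowest among the brightest probes of the tested members. All of these values lie close to the lowest detected signals of 5.11 to 5.25, and the difference was -0.33 with a background offset of 50 in place of 16. Its other 2 probes were detected on no array. Cdkn1c, the imprinted inhibitor p57, read 14.66, 14.91 and 14.82 on the arrays labelled cKO, against 14.60, 14.51 and 14.62 on the control arrays. The groups did not overlap and the difference was 0.22 (SE 0.09, adjusted p = 0.172), but it was -0.10 with the arrays scaled to a common median. The inhibitors Cdkn2c and Cdkn2d differed by -0.03 and -0.29, the transcription factor E2f1 by -0.28, and Rb1 by 0.04, with adjusted p-values of 0.26 or more. Cdkn2d did not overlap between the groups, nor did a dimmer tested probe of Cdkn2c, which gave -0.24 (SE 0.13).

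**Figure D3:**
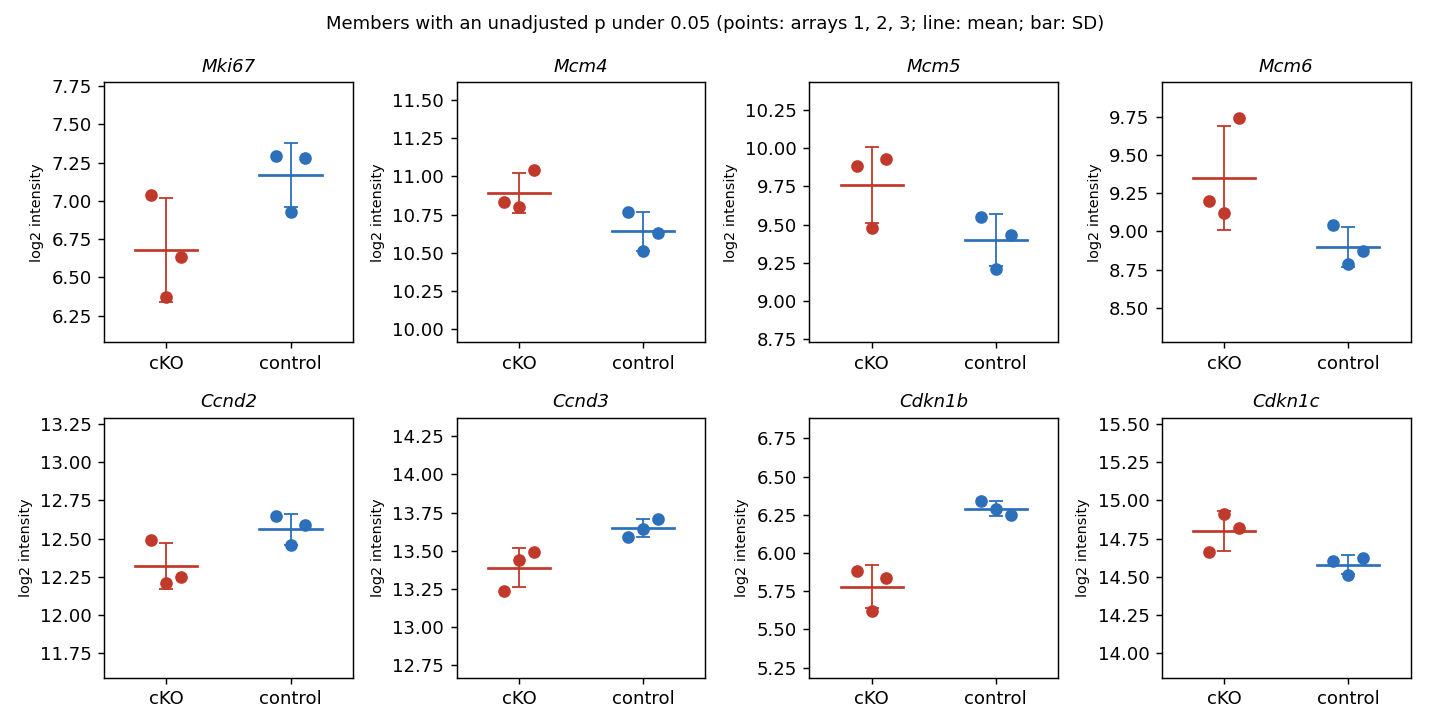
Log2 intensity of the 8 members with an unadjusted p under 0.05 on each array (points, replicates 1 to 3 from left to right), with group means (lines) and SD (bars), each panel spanning the same log2 range. Mcm4, Mcm5, Mcm6 and Cdkn1c have higher means on the arrays labelled cKO, and Mki67, Ccnd2, Ccnd3 and Cdkn1b lower ones. None passed an adjusted p under 0.05.

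Single arrays moved many members together. On cKO replicate 2, 16 of the 35 tested members had their lowest of the 6 values (45.7%), where 19% of all genes had theirs on that array. They included all 5 mitotic cyclins and kinases and 3 of the 5 checkpoint, centromere and motor genes. The median deviation of the mitotic cyclins and kinases from their mean over the 6 arrays was 0.35, -0.46 and -0.17 log2 units on cKO replicates 1, 2 and 3, against 0.23, 0.00 and 0.13 on control replicates 1, 2 and 3. That of the checkpoint group was 0.22, -0.39 and 0.01 on the arrays labelled cKO, against 0.06, 0.01 and 0.17 on the control arrays. The spread within the label thus exceeded the difference between the labels in both groups. Without cKO replicate 2, 3 of the 5 mitotic and 2 of the 5 checkpoint genes lay below 0, with medians of -0.01 and 0.01. Without cKO replicate 1 the medians were -0.40 and -0.24, and without control replicate 2 that of the checkpoint group was -0.18. Of the checkpoint genes, 3 lay below 0 without control replicate 3 and 3 under either median scaling. On control replicate 2, 10 members had their lowest value (28.6%, against 19% of all genes), 7 of them the helicase and loading genes.

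**Figure D4:**
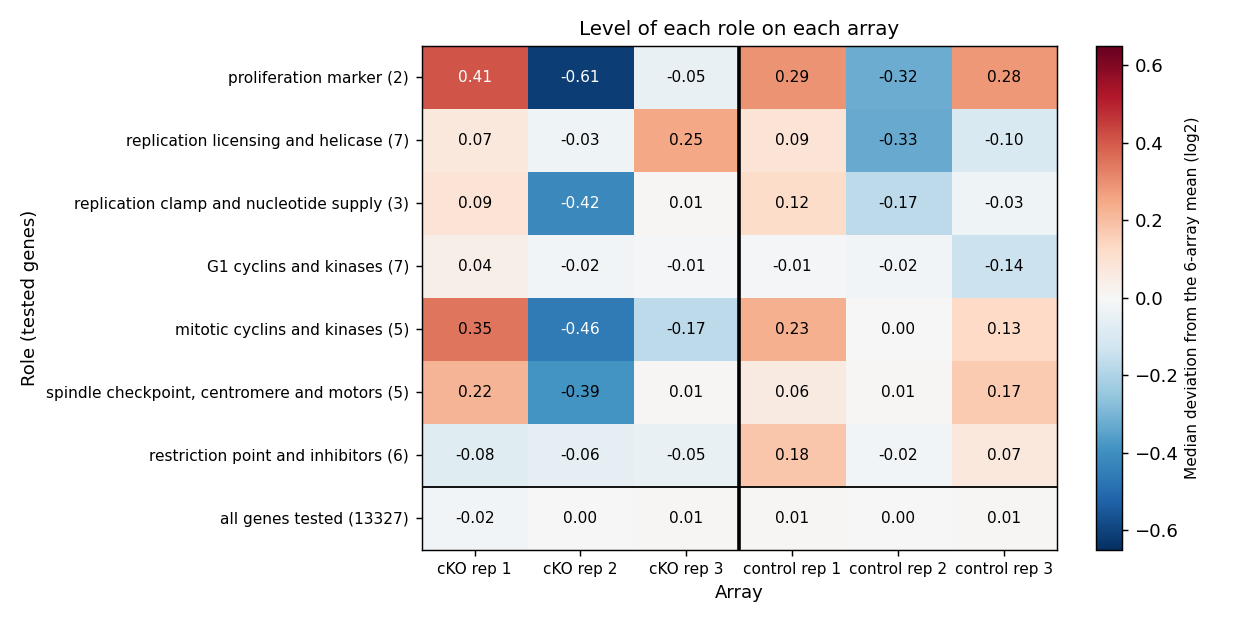
Median deviation from the 6-array mean, in log2 units, of the tested genes of each role (rows, number of tested genes in brackets) on each array (columns, arrays labelled cKO left of the line). The mitotic cyclins and kinases span 0.35 to -0.46 within the arrays labelled cKO, the helicase and loading genes have their lowest value, -0.33, on control replicate 2, and all genes tested stay within 0.02 of 0.

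A longer list of 161 further cell cycle genes was read the same way. Of 106 tested, 0 were higher and 2 were lower past the threshold (1.89%, against 6.98% of all genes), 8 had an unadjusted p under 0.05 (7.55%, against 23.7% of all genes), and 63.2% lay below 0, against 52.3% of all genes. Kif23, a kinesin that bundles the midzone of the spindle for cytokinesis, read 13.29, 13.02 and 13.24 log2 units on the arrays labelled cKO, against 14.17, 14.30 and 14.14 on the control arrays. No array of either group came near the other group. The difference of this probe, the brightest of Kif23, was -1.02 log2 units (SE 0.09, limma adjusted p = 0.00129). A second probe was also lower, at -0.80 (SE 0.17, adjusted p = 0.0282), whereas the third gave 0.03 (SE 0.21, adjusted p = 0.961), so the probes of Kif23 disagree. These 2 probes were far dimmer than the first, with readings from 6.12 to 7.35 log2 units over all arrays. Tfdp2, a dimer partner of E2F factors, read 10.15, 10.10 and 10.21 on the arrays labelled cKO, against 10.49, 10.49 and 10.59 on the control arrays. Again the groups were apart, with a difference of -0.37 (SE 0.09, adjusted p = 0.0457). The other 4 Tfdp2 probes read from -0.46 to -0.21 without passing, and the call was lost without any 1 of the 6 arrays (adjusted p from 0.0728 to 0.139).

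By function, the 38 tested genes of the replication fork had 0 past the threshold and a median of -0.02. Those with the smallest p were Pold1, the catalytic subunit of DNA polymerase delta (0.35, SE 0.14, adjusted p = 0.173), and Orc2, a subunit of the origin recognition complex. No array labelled cKO detected Orc2 and all 3 control arrays did, so its level on the arrays labelled cKO is only bounded. Taken at no less than the lowest detected signal of each such array, that level was 1.2-fold lower than on the control arrays. The measured difference had a 95% interval of -0.65 to -0.01 (adjusted p = 0.21). The 37 tested genes of mitosis and cytokinesis had a median of -0.13, with Kif23 the only one past the threshold, and 18 of them had their lowest value on cKO replicate 2. The 31 tested transcription factors and regulators had a median of -0.06, with Tfdp2 the only one past it.

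Markers of other cells differed between the labels beside these values. Of 8 tested genes of the capsule and mesenchyme 7 were higher, with summed intensities of 28300 to 37700 on the arrays labelled cKO and 13300 to 15200 on the control arrays. Fat cell markers (3 of 5 higher) summed to 43500 to 55700 on the arrays labelled cKO and 20200 to 24400 on the control arrays. Markers of the X-zone, the inner cortical zone of virgin females, summed to 293 to 5570 on the arrays labelled cKO and 21000 to 27600 on the control arrays (2 of 2 lower). Fabp4 and Retn of the fat markers and Gli1 of the capsule markers were detected on no array. Chromaffin cell markers summed to 56100 to 70300 on the arrays labelled cKO and 34600 to 48700 on the control arrays (1 of 6 higher), and macrophage markers to 2070 to 2930 on the arrays labelled cKO and 2550 to 3170 on the control arrays (1 of 7 lower). Granulosa and Sertoli cell markers summed to 708 to 1020 on the arrays labelled cKO and 391 to 664 on the control arrays (1 of 4 higher), with Amh, Dmrt1 and Fshr detected on no array. The 1 higher gene was Amhr2 (2.75 log2 units, SE 0.36), while Inha, Sox9 and Foxl2 differed by 0.12, 0.15 and -0.15. The sums overlapped, with no gene past the threshold, for markers of mast cells (1650 to 2400 on the arrays labelled cKO, 1360 to 2340 on the control arrays), erythroid precursors (62200 to 101000 and, on the control arrays, 81300 to 109000) and endothelium (9810 to 12600 and, on the control arrays, 10900 to 12400). The median differences over the tested genes of these lists were 0.68, -0.50 and 0.01 log2 units. Hdc, the brightest of the mast cell markers, differed by -0.02. Ms4a2 of the mast cell list and Klf1 of the erythroid list were detected on no array. The part of these cells in the values of the cell cycle genes was not tested.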

How the data were processed

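The authors deposited a linear intensity for each probe and array, in a table named as non-normalized; per the file headers, its columns are the 6 samples. Between 30.7% and 33.4% of an array's values were negative, as after a background subtraction. A detection p-value stands beside each intensity in the deposited table. A second deposited table holds the authors' processed intensity values of the same arrays, linear, not centred and with column medians of 9.98 to 10.05. It served as an alternative, and its normalization is not stated. Scanner software, array slides and scan dates: not given in the sources used here.

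From the signals, limma 3.58.1 in R 4.3.3 corrected the background with normexp (offset 16), fitted through those detection p-values, and quantile normalized the log2 values. Probes detected at p under 0.05 on at least 3 of 6 arrays were tested (19210 of 45281). A gene was represented by its brightest tested probe. Members were taken by the symbol column of the file. For all other genes, symbols were updated through a RefSeq table (GRCm38.p6). Of the probes, 27740 carried a current symbol, 8037 an older symbol and 9504 a symbol found in neither form. Labels were compared with limma's moderated test with an intensity trend, two-sided, with Benjamini-Hochberg adjustment over all tested probes. The number of arrays, 3 per label, limits the precision. Arrays with the same replicate number were not treated as pairs in the main fit (correlations of their deviations 0.044, 0.036 and -0.015). Intensities of marker lists are sums over the brightest probe of each gene on the linear scale, with the offset removed. The results of 2 marker lists are not reported here.

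Every member was accounted for. Values on every array were given for members with an unadjusted p under 0.05 and for the brightest member of each role. The further genes past the threshold were given in the same way. Where a list had none, the 2 with the smallest p were given by their differences, intervals or bounds. Examples beyond this rule (the third Ccnd2 probe, Ccne2, Ccnb1) were chosen after their values were seen. The members and lists were chosen with earlier results of these data known. The test was tried on simulated data with fixed seeds.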

Additional observations from a re-analysis of the deposited data

How the results depend on the processing

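Each result was recomputed under 17 other settings, 6 of which left out an array. Members past the threshold numbered 0 in 16 of them and 2 with median scaling over the tested probes, which also gave 1420 called genes in place of 930. Median scaling over all probes, chosen after seeing the data, gave 0 members. Without 1 array, called genes numbered 370 to 922 (465 without cKO replicate 2, 370 without cKO replicate 3, 596, 433 and 607 without control replicates 1, 2 and 3), members past the threshold stayed at 0, and the median difference of the members ran from -0.16, without cKO replicate 1, to 0.02. Further cell cycle genes past the threshold numbered 1 in place of 2 with median scaling over all probes, with no filter on dim probes, with the mean of a gene's tested probes and with the replicate block, and 1 to 2 without 1 array. The 2 were Kif23 and, without control replicate 1, the growth arrest gene Gas2, named after its values were seen, which had a difference of 0.81 over all arrays (adjusted p = 0.164). Kif23, by its brightest probe or the mean of its probes, was past the threshold in all 17 (-1.29 to -0.60) and Tfdp2 in 7. The replicate block took Tfdp2 out of the calls (-0.37, adjusted p = 0.0923) and gave 0 members. Same-numbered arrays share only a number. The Gata6 probe was past the threshold under array weights (0.43, adjusted p = 0.033), under a robust variance (0.40, adjusted p = 0.0472) and once cKO replicate 1 was left out (0.46, adjusted p = 0.045). Leaving out 1 array gave 0.31 to 0.46. Its difference was 0.18 with median scaling over the tested probes (adjusted p = 0.304) and 0.28 over all probes (adjusted p = 0.275). Members with an unadjusted p under 0.05 numbered 1 to 11, lowest without control replicate 3 (1) and cKO replicate 3 (2). Cdkn1c changed sign with median scaling (-0.10) and Ccnd2 with the mean of its probes (0.11). Signals near background limit what the 7 members whose probes were all untested and dim ones such as Rrm2, Cdkn1b, Ccne1 and Ccne2 can show.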
